A study of Mus musculus with 8 samples.

Results

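The 4 genes described here, *1700001O22Rik*, *Slc15a5*, *Actr3b* and *Gm5420*, had the most negative log2 fold changes between Klotho-deficient and wild-type tibialis anterior (TA) muscle. They are 4 of 12551 genes in the table of read counts. They were chosen on this contrast: each was lower in KL-/- muscle at a false discovery rate (FDR) under 0.05, had no overlap between genotypes and averaged at least 0 on the log2 CPM scale (CPM are counts relative to library size, here scaled by edgeR's TMM factors), and genes were then ranked by log2 fold change. Their own differences are therefore a description and carry no test. Whole TA muscles came from male littermates, 4 wild-type (WT) and 4 homozygous for a Klotho mutation (KL-/-), aged 7 weeks. All mice were bred from heterozygous carriers on a mixed background, no mouse received an agent, and the homozygous mutation is carried in every tissue, so the muscle was not the only organ that lacked Klotho. RNA of each muscle was sequenced as 1 library.

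Klotho is a transmembrane and circulating protein of kidney, brain and some other tissues, and the paper reports it in normal skeletal muscle too. It serves as co-receptor for the hormone FGF23, and mice without it show early features of ageing. *Actr3b* encodes a close relative of Arp3, a core subunit of the Arp2/3 complex, which starts new actin filaments as branches on the sides of existing ones. *Slc15a5* is placed by sequence in the SLC15 family, whose better known members move dipeptides, tripeptides and histidine across membranes together with protons. *1700001O22Rik* is annotated as protein-coding and is known only by a cDNA clone name. *Gm5420* is a predicted gene annotated as a long non-coding RNA.

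On mm10, the counted span of *1700001O22Rik* (ENSMUSG00000044320.14) is chromosome 2, 30795563 to 30803664, minus strand, with 8 exon blocks and 1591 counted exonic bases. *Slc15a5* (ENSMUSG00000044378.12) lies on chromosome 6, 137983590 to 138079916, minus strand, with 9 exon blocks and 2461 bases. *Actr3b* (ENSMUSG00000056367.14) lies on chromosome 5, 25760026 to 25850341, plus strand, with 12 exon blocks and 1711 bases. *Gm5420* (ENSMUSG00000056716.10) lies on chromosome 10, 21690845 to 21693978, plus strand, with 3 exon blocks and 2206 bases. The 4 genes thus sit on 4 chromosomes. *Kl* is on the same chromosome as *Actr3b*, at 150952607 to 150993817 and 125 Mb away. It is not among the counted genes, so in these counts the genotypes rest on the sample labels. The authors typed their mice by PCR and detected no *Kl* mRNA in KL-/- muscle by qRT-PCR. No other annotated gene overlapped the counted spans, and none of the 50-base stretches of the members' annotated transcripts occurred in a transcript of another gene. In particular, the coding sequences of *Actr3b* and *Actr3* share 959 of 1257 bases (76.3%) but no run of 50, so reads on *Actr3b* are distinguishable from those on *Actr3* over such a length.

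The bases ahead of the transcription starts of 3 of these genes are shown because the genes were low in the same muscles, and they let a reader see what lies there. Sequences are from RefSeq on GRCm38.p6 (mm10), up to 250 bases before the start, 5′ to 3′ on the strand of the gene, with capitals marking matches to the motifs named below. For *1700001O22Rik*, the 65 bases nearest the counted start fall inside RefSeq's span of the gene and are left out. Its region is chr2:30803730-30803914, minus strand. That of *Slc15a5* is chr6:138079917-138080166, minus strand, and that of *Gm5420* is chr10:21690595-21690844, plus strand. GENCODE gives *Gm5420* a wider span, 21686411 to 21707440, so the bases printed for *Gm5420* precede its RefSeq start but lie inside its GENCODE span. The RefSeq table used holds no entry for *Actr3b*.
1700001O22Rik: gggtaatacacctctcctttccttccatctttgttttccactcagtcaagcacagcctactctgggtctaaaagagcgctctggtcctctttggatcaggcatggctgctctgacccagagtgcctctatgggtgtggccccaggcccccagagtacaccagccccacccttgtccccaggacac
Slc15a5: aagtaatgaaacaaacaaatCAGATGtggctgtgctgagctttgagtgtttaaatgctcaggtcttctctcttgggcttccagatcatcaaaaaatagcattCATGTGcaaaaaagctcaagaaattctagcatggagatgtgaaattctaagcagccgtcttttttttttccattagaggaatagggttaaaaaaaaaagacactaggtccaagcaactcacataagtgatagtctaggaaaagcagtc
Gm5420: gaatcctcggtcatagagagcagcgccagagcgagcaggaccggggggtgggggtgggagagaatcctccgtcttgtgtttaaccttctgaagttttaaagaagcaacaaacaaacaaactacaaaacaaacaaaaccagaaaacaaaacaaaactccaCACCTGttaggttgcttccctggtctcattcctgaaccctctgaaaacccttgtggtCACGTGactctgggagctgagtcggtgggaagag

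Both strands of the full windows of 250 bases were searched for the E-box spelled CANNTG and for its clock form CACGTG, whose matches are also E-boxes. They were searched for the promoter elements CCAAT, then TATAAA, then GGGCGG, known as the GC box. The factor sites searched were GTAAACA for FOXO proteins, AGAACA for the glucocorticoid receptor (part of its full site), TGANTCA for AP-1, and the muscle elements MEF2 and CArG box, taken by name. The window of *Slc15a5* held the E-boxes CAGATG, 230 bases before the start, and CATGTG, 148 bases before it. That of *Gm5420* held CACCTG at 91 bases and CACGTG at 34 bases before its start. An E-box occurs in 66.2% of the 32851 mouse promoter windows of this length and CACGTG in 6.02%. In the window of *1700001O22Rik* at the counted start, the one match was AGAACA, 12 bases before the start and within the stretch not printed, which 16.1% of windows hold. The other motifs had no match in these 3 windows, and they occur in 33.8% (CCAAT), 12.4% (TATAAA), 32.7% (GGGCGG), 3.17% (GTAAACA), 6.75% (TGANTCA), 1.69% (MEF2) and 1.47% (CArG) of all windows. No motif of the list was present in all 3 windows at the counted starts. RefSeq also gives *1700001O22Rik* a start 1927 bases away, inside the counted gene, but no GENCODE transcript of the gene held the bases just after it. The window before that start, which is not printed, held 4 E-boxes and a GC box. An E-box was found for all 3 genes only when this second window was added, and 66.2% of single windows hold one. The window of *Slc15a5* was the poorest in G and C of the 3, at 37.2%, against 49.2% for *Gm5420* and 54.8% for *1700001O22Rik*. The window of *1700001O22Rik* also overlaps 4930527E20Rik, a gene annotated on the opposite strand.

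WT libraries held between 20860262 and 26501093 counts and KL-/- libraries between 22061526 and 29273758. The floor of detection, taken as 3 counts, corresponds to 0.102 to 0.144 CPM by library totals, before scaling by the TMM factors. KL-/- replicate 3 has a batch date of its own in the sample records, and that date cannot be told apart from the mouse. Of 12551 genes, 1759 (14.0%) passed an FDR of 0.05 in edgeR's quasi-likelihood test in either direction, 837 (6.67%) were lower in KL-/- muscle, and 1189 (9.47%) had their highest KL-/- level under their lowest WT level, a condition that the 4 genes had to meet. DESeq2 called 1143 of all genes lower and 1313 higher. The share of all genes at an unadjusted p under 0.05 is not given, so counts at that threshold stand without a background. Markers of muscle fibres summed to 97829 to 114777 CPM in WT and 113955 to 143257 CPM in KL-/- muscles, with 0 of the 6 genes passing the test (0 at an unadjusted p under 0.05, and 2 higher with DESeq2). In bulk muscle, fewer cells of a type and less RNA per cell cannot be told apart.

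*1700001O22Rik* had the largest difference of the 4. WT replicates 1 to 4 held 109, 87, 71 and 284 counts, which correspond to 4.45, 4.02, 2.71 and 10.2 CPM. KL-/- replicates 1 to 4 held 7, 6, 7 and 3 counts, or 0.244, 0.286, 0.290 and 0.113 CPM. Each WT muscle thus held at least 71 reads on the gene and each KL-/- muscle at most 7, with WT replicate 4 far above the other WT muscles and KL-/- replicate 4 at the floor of 3 counts. WT muscle averaged 5.34 ± 3.31 CPM, and KL-/- muscle, at 0.233 ± 0.0829 CPM (SD, n = 4), retained 4.37% of that level, with a log2 fold change of −4.52 (standard error 0.57). The highest KL-/- muscle and the lowest WT muscle were still 9.33-fold apart. All KL-/- muscles together gave 23 counts, with a 95% exact Poisson interval of 14.6 to 34.5 counts that covers counting error only, against 551 counts in WT.

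*Slc15a5* was the most abundant of the 4 in WT muscle. It held 414, 301, 219 and 577 counts in WT replicates 1 to 4 (16.9, 13.9, 8.35 and 20.7 CPM). In KL-/- replicates 1 to 4 it held 18, 35, 35 and 9 counts (0.628, 1.67, 1.45 and 0.339 CPM). The genotypes were 5.0-fold apart at their closest, between WT replicate 3 and KL-/- replicate 2, and the KL-/- muscles differed more among themselves (4.92-fold from lowest to highest) than the WT muscles did (2.48-fold). From a WT mean of 15.0 ± 5.21 CPM, KL-/- muscle fell to 1.02 ± 0.639 CPM (SD, n = 4), with a log2 fold change of −3.92 (standard error 0.41) and 6.83% of the WT level remaining. The KL-/- counts summed to 97 (95% exact Poisson interval 78.7 to 118) and the WT counts to 1511.

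*Actr3b* held 171, 121, 76 and 409 counts in WT replicates 1 to 4 (6.98, 5.60, 2.90 and 14.7 CPM). KL-/- replicates 1 to 4 held 27, 20, 27 and 21 counts (0.941, 0.954, 1.12 and 0.792 CPM). The KL-/- muscles were close together, 1.41-fold from lowest to highest, whereas the WT muscles were spread over 5.06-fold, and WT replicate 3 came within 2.59-fold of the highest KL-/- muscle. Means were 7.54 ± 5.05 and 0.952 ± 0.134 CPM (SD, n = 4), so that 12.6% of the WT level remained, and the log2 fold change was −2.99 (standard error 0.49). Counts summed to 95 in KL-/- muscle (95% exact Poisson interval 76.9 to 116) and to 777 in WT.

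*Gm5420*, the non-coding RNA, was the lowest and the most even of the 4 in WT muscle. Its counts were 51, 47, 46 and 57 in WT replicates 1 to 4 (2.08, 2.17, 1.75 and 2.04 CPM) and 11, 4, 6 and 5 in KL-/- replicates 1 to 4 (0.384, 0.191, 0.249 and 0.188 CPM). No WT muscle stood out, and KL-/- replicate 1 was the highest of its group. Means were 2.01 ± 0.182 and 0.253 ± 0.0915 CPM (SD, n = 4), with a log2 fold change of −2.93 (standard error 0.25), 12.6% of the WT level and a gap of 4.57-fold between the closest samples. The 26 KL-/- counts (95% exact Poisson interval 17.0 to 38.1) compare with 201 in WT.

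**Figure D1:**
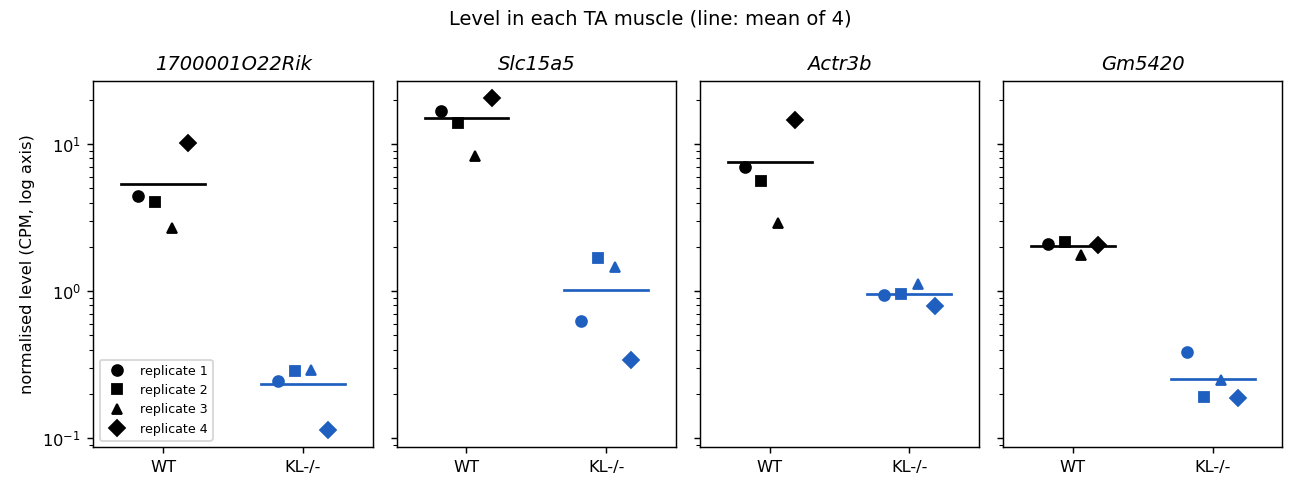
Level of each gene in each TA muscle, in CPM on a log axis, with the replicate number as the symbol, WT in black, KL-/- in blue and a line at the mean of the 4 muscles. Every KL-/- point lies below every WT point of the same gene, and WT replicate 4 is the highest WT point for *1700001O22Rik*, *Slc15a5* and *Actr3b* but not for *Gm5420*.

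Per kilobase of exon, which allows levels of different genes to be compared, *Slc15a5* stood at 6.08 ± 2.12 RPKM in WT muscle, *Actr3b* at 4.40 ± 2.95, *1700001O22Rik* at 3.36 ± 2.08 and *Gm5420* at 0.913 ± 0.0823 RPKM (SD, n = 4). The WT ranges of the first 3 overlapped. Within single muscles, *Slc15a5* exceeded *1700001O22Rik* in each WT replicate. *Actr3b* was above *Slc15a5* only in replicate 4, and below *1700001O22Rik* only in replicate 3 (1.69 against 1.70 RPKM). Every WT level of *Gm5420* (0.795 to 0.985 RPKM) lay below the lowest of the others (1.69 RPKM, *Actr3b* in replicate 3). In KL-/- muscle the order was *Actr3b* at 0.556 ± 0.0782, *Slc15a5* at 0.415 ± 0.260, *1700001O22Rik* at 0.147 ± 0.0521 and *Gm5420* at 0.115 ± 0.0415 RPKM (SD, n = 4). Here, too, the ranges of neighbours in the order overlapped, although *Slc15a5* exceeded *1700001O22Rik* in each KL-/- muscle. Among all 12551 genes ranked by mean RPKM, *Slc15a5* was at place 5778 in WT and 11614 in KL-/- muscle, *Actr3b* at 6785 and 11229, *1700001O22Rik* at 7629 and 12386, and *Gm5420* at 10630 and 12467. The 3 coding genes thus moved from the middle of the table to near its lower end, where *Gm5420* already stood in WT muscle.

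No other gene of the table, at any FDR or average level, had a log2 fold change as low as that of *Gm5420*. In the other direction, a change of that size was reached by 1 gene, *Nr4a3*, an activity-induced nuclear receptor (log2 fold change 3.04, edgeR FDR = 0.0753, with overlapping genotypes). The choice filter was met by 730 genes, in which the 4 held ranks 1 to 4. The genes just outside were *Npas2*, a transcription factor of the circadian clock (log2 fold change −2.61), *C7*, a component of the terminal complement complex (−2.55), and *Lrtm2*, a leucine-rich repeat membrane protein (−2.35). *Npas2* and *Gm5420* were similarly low on average, but *Npas2* rested on an uneven WT group, at 1.22, 0.925, 4.04 and 1.33 CPM in replicates 1 to 4, where *Gm5420* did not.

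**Figure D2:**
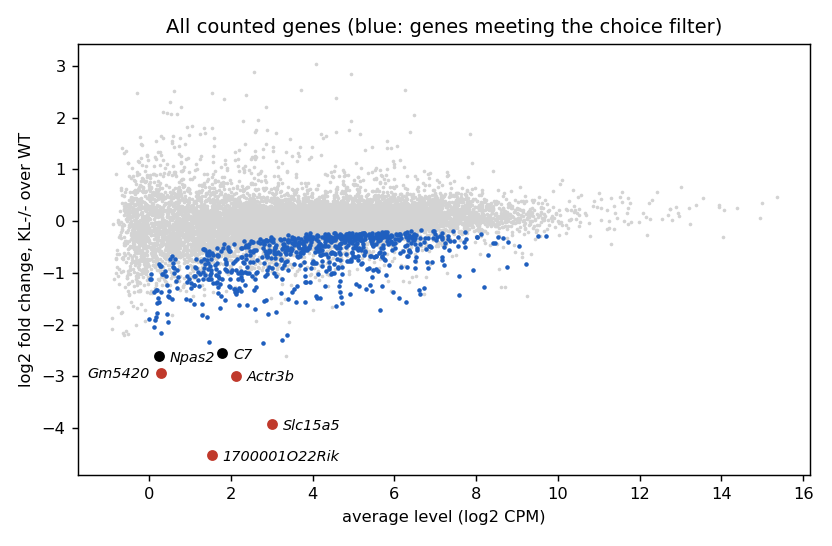
Log2 fold change (KL-/- over WT) of all 12551 genes against their average level in log2 CPM. Blue points are the genes that met the choice filter, red points the 4 genes described and black points the next in rank, *Npas2* and *C7*; no other gene lies as low as the red points, which run from −2.93 to −4.52.

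Within WT muscle, 3 of the 4 genes ranked the mice in the same way. Levels of *1700001O22Rik*, *Slc15a5* and *Actr3b* were highest in replicate 4, followed by replicates 1, 2 and 3. This order was held by 1083 of the 12551 genes (8.63%), and it uses no KL-/- sample. Replicate 4 reached 191% of the WT mean for *1700001O22Rik*, 138% for *Slc15a5* and 195% for *Actr3b*, but 102% for *Gm5420*. Replicate 3 stood at 50.7%, 55.8%, 38.5% and 87.1% for the same genes. KL-/- replicate 4 had the lowest KL-/- level of all 4 genes, from 2.12% of the WT mean for *1700001O22Rik* to 10.5% for *Actr3b*.

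Genes of like abundance had an average over both genotypes within 0.5 log2 CPM. Their median fold between the highest and the lowest WT muscle was 1.5 around *1700001O22Rik*, 1.29 around *Slc15a5*, 1.40 around *Actr3b* and 1.79 around *Gm5420*. Low KL-/- levels pulled this average below the WT level. For *Gm5420* it was 0.278 log2 CPM, against 0.875 to 1.17 log2 CPM in single WT muscles. The genes compared were thus centred on a lower level, and the median fold was larger at lower averages. The share given next for *Gm5420* may overstate its evenness, and a match on WT level was not tested. Only 1.53% of such genes spread as widely over the WT mice as *1700001O22Rik* (3.76-fold), 2.94% as *Slc15a5* (2.48-fold) and 0.679% as *Actr3b* (5.06-fold), whereas 96.3% spread as widely as *Gm5420* (1.24-fold) or more. *Actr3b* and *Gm5420* therefore had nearly equal mean decreases on very unequal WT groups. With WT replicate 4 left out, the log2 fold change was −3.99 for *1700001O22Rik*, −3.72 for *Slc15a5*, −2.43 for *Actr3b* and −2.92 for *Gm5420*. With KL-/- replicate 3 left out, the library with its own batch date, the values were −4.65, −4.17, −3.08 and −2.92.

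**Figure D3:**
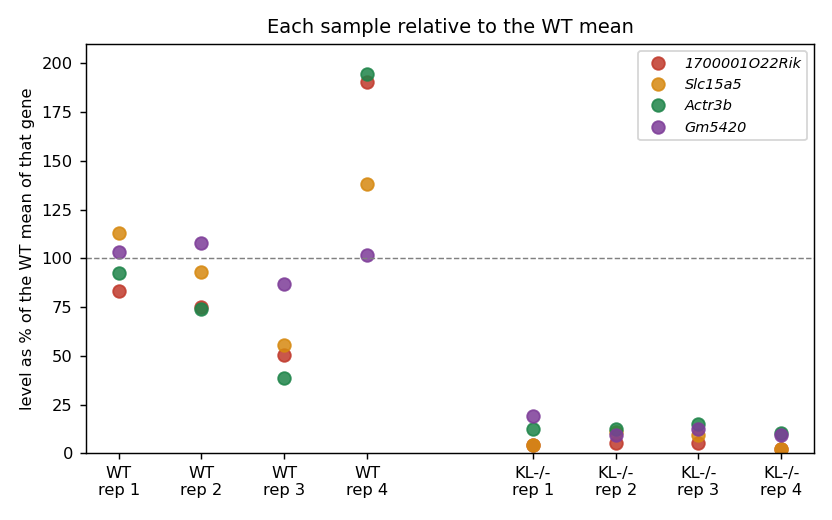
Level of each gene in each of the 8 muscles as a percentage of that gene's WT mean (dashed line at 100%), by mouse. WT replicate 4 lies at 138% to 195% for 3 genes and at 102% for *Gm5420*, and the KL-/- points lie at or below 19.1%.

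Likeness between genes was measured as the root mean square difference of log2 CPM over the 8 muscles, after each gene was centred on its own mean, among 11996 genes averaging at least 0 log2 CPM. It draws on the genotype difference that chose the 4 genes, so it is a description. *1700001O22Rik* and *Slc15a5* were each other's closest gene, at 0.44 log2 units, and *Actr3b* was second to both, at 0.70 and 0.85. *C7* came next for both, at 0.84 and 0.90. *Actr3b* was closest to *C7* (0.51), then to *Gm5420* (0.58) and *Slc30a2*, a zinc exporter (0.62). *Gm5420* was closest to *C7* (0.36), *Lrtm2* (0.45) and *Scd2*, a stearoyl-CoA desaturase (0.52). *C7*, at 4.90, 6.20, 4.35 and 7.60 CPM in WT replicates 1 to 4 and 1.22, 1.34, 0.787 and 0.603 CPM in KL-/- replicates 1 to 4, was therefore among the 3 closest genes of each of the 4.

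Because *Actr3b* was chosen by rank, it was fixed in advance that no other gene of the Arp2/3 complex fell as far. Of its 9 other subunit genes, all measured, 1 was lower in KL-/- muscle and 0 were higher in the edgeR test, against 14.0% of all genes called, and their median log2 fold change was −0.17, beside −0.016 for all genes. At an unadjusted p under 0.05, 4 were lower and 0 higher, and DESeq2 called 2 lower and 0 higher. The gene that fell was *Actr2*, which encodes Arp2 itself. It stood at 55.2, 55.7, 56.5 and 53.9 CPM in WT replicates 1 to 4 and at 45.9, 47.8, 45.1 and 42.9 CPM in KL-/- replicates 1 to 4. Genotypes did not overlap, and the difference was small (log2 fold change −0.29, standard error 0.055, edgeR FDR = 0.0121).

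*Actr3*, the main Arp3 gene and paralog of *Actr3b*, averaged 52.6 ± 3.97 CPM in the WT group and 46.6 ± 3.56 CPM in the KL-/- group (SD, n = 4, log2 fold change −0.17, edgeR FDR = 0.152). The other subunits had log2 fold changes of −0.43 for *Arpc1b* (edgeR FDR = 0.0733), −0.21 for *Arpc5* (0.179), −0.18 for *Arpc3* (0.128), −0.11 for *Arpc4* (0.204), −0.070 for *Arpc1a* (0.473), 0.064 for *Arpc5l* (0.585) and 0.17 for *Arpc2* (0.181). When library totals replaced the TMM factors, 6 of the 9 passed, all of them lower, and that scaling moved the median of all genes to −0.13. The count was 2 without WT replicate 4 and 3 without KL-/- replicate 2.

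As a share of the Arp3 transcripts (RPKM of *Actr3b* over that of *Actr3b* and *Actr3*), *Actr3b* made up 18.7%, 15.1%, 7.44% and 30.7% in WT replicates 1 to 4. In KL-/- replicates 1 to 4 it made up 3.02%, 3.53%, 3.47% and 2.69%. Mean shares were 18.0 ± 9.68% for WT and 3.18 ± 0.401% for KL-/- mice (SD, n = 4), and the sum of both genes was 23.5 ± 2.97 RPKM and 17.5 ± 1.33 RPKM. *Actr3* was thus the larger part of the Arp3 transcripts in all 8 muscles, and *Actr3b* was a minor and variable part in WT muscle.

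**Figure D4:**
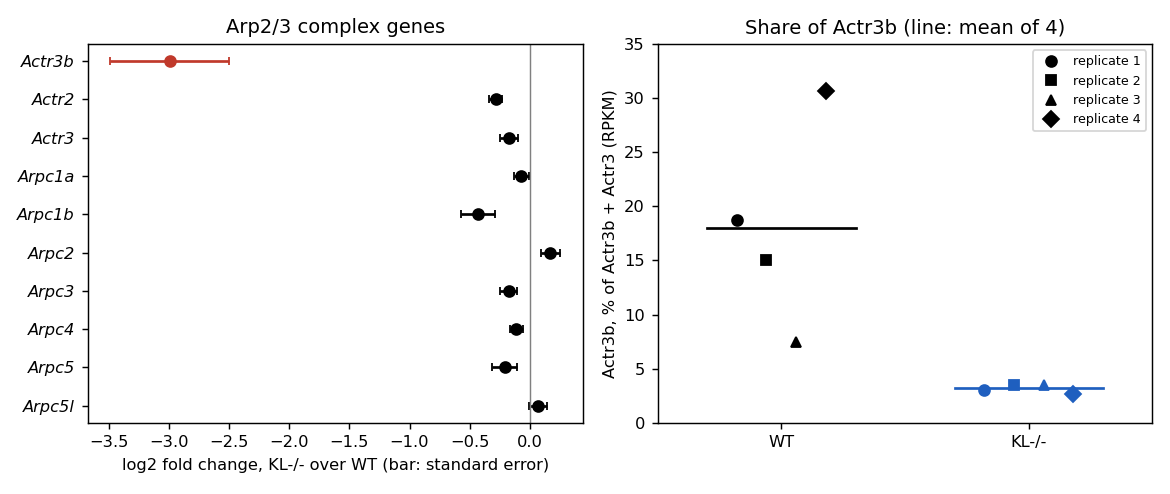
Left, log2 fold change (KL-/- over WT) of *Actr3b* (red) and the 9 other Arp2/3 subunit genes (black), with bars for the standard error; *Actr3b* lies at −2.99 and the others between −0.43 and 0.17. Right, share of *Actr3b* in the summed RPKM of *Actr3b* and *Actr3* in each muscle (%), with a line at the mean of the 4 muscles, which falls from 18.0% in WT to 3.18% in KL-/- muscle.

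Among genes that activate, restrain or take apart Arp2/3 branches, 31 of 32 listed were measured, 4 were lower and 1 was higher (16.1% called, against 14.0% of all genes), with a median log2 fold change of −0.11. The lower ones were *Nckap1l* (log2 fold change −1.18, edgeR FDR = 0.0472), the blood-cell subunit of the WAVE complex, *Coro1a* (−1.01, FDR = 0.0226), a coronin of white blood cells, *Wipf1* (−0.59, FDR = 0.0320), a partner of WASP proteins, and *Coro1c* (−0.45, FDR = 0.0342), a widely expressed coronin. *Fam21* rose (log2 fold change 0.37, standard error 0.063, edgeR FDR = 0.00785). It encodes a subunit of the WASH complex, which activates Arp2/3 on endosomes. *Nckap1l* and *Coro1a* are genes of white blood cells, and of the 6 macrophage markers 1 was lower (16.7%, against 6.67% of all genes), 4 were lower with DESeq2 and 4 at an unadjusted p under 0.05, with a median log2 fold change of −0.90 and sums of 31.6 to 75.2 CPM in the WT group and 25 to 47.9 CPM in the KL-/- group, and the part of macrophages in these calls was not tested. The 5 calls fell to 2 without WT replicate 2, 1 without WT replicate 3, 3 without WT replicate 4, 1 without KL-/- replicate 3 and 1 without KL-/- replicate 4, while *Fam21* passed in all 8 fits with 1 library left out.

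Because *Slc15a5* was chosen by rank, it was fixed in advance that no other counted gene of the SLC15 family fell as far. *Slc15a2*, the high-affinity peptide transporter PEPT2, was at 8.61, 1.57, 3.97 and 3.51 CPM in WT replicates 1 to 4 and at 7.67, 2.77, 12.1 and 12 CPM in KL-/- replicates 1 to 4, with overlapping genotypes (log2 fold change 0.97, standard error 0.51, edgeR FDR = 0.216). *Slc15a3* and *Slc15a4*, transporters of lysosomes and endosomes, had log2 fold changes of −0.76 (edgeR FDR = 0.209) and −0.23 (edgeR FDR = 0.0666). With library totals as scaling, *Slc15a4* passed (log2 fold change −0.35, edgeR FDR = 0.0149). *Slc15a1* is not among the counted genes. By RPKM, *Slc15a5* made up 45.9%, 47.1%, 32.4% and 55.9% of the 4 counted SLC15 genes in WT replicates 1 to 4 and 3.51%, 10.3%, 7.00% and 1.81% in KL-/- replicates 1 to 4. It was the largest of the 4 transcripts in WT replicates 1, 2 and 4 and second to *Slc15a4* in replicate 3, whereas *Slc15a4* was the largest in each KL-/- muscle.

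The wider list of SLC15 genes, enzymes of carnosine and histidine and peptidases had 15 of 18 genes measured, of which 3 were lower and 0 higher (20.0% called, against 14.0% of all genes), with a median log2 fold change of −0.053. At an unadjusted p under 0.05, 1 was higher, and DESeq2 called 0 higher. Those that fell were *Hal*, histidine ammonia-lyase (log2 fold change −1.36, edgeR FDR = 0.0240), *Dpp4*, a dipeptidyl peptidase of the cell surface (−0.92, FDR = 0.0494), and *Dpep1*, a membrane dipeptidase (−0.80, FDR = 0.0282). *Carns1*, which makes the muscle dipeptide carnosine, averaged 44.0 ± 3.04 CPM in the WT group and 52.3 ± 6.39 CPM in the KL-/- group (SD, n = 4, edgeR FDR = 0.106). The count was 1 without WT replicate 1 or 2 and 0 without WT replicate 3 or KL-/- replicate 3 or 4.

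Position was not used to choose the 4 genes, and the counted genes around them gave 31 neighbours within 500 kb. Of these, 4 were lower and 1 was higher (16.1% called, against 14.0% of all genes), with a median log2 fold change of −0.14. The neighbour with the largest difference was *Mgst1*, a membrane-bound glutathione transferase, 60.6 kb from *Slc15a5*. *Mgst1* stood at 39.6, 32.0, 29.1 and 42.1 CPM in WT replicates 1 to 4 and at 11.9, 17.0, 10.1 and 7.05 CPM in KL-/- replicates 1 to 4, without overlap. It fell from 35.7 ± 6.14 to 11.5 ± 4.18 CPM (SD, n = 4, log2 fold change −1.64, standard error 0.24, edgeR FDR = 0.00485), and passed in each of the 8 fits with 1 library left out. Its WT muscles followed the order of *Slc15a5*, replicate 4 above 1, 2 and 3, an order held by 8.63% of all genes. Its lowest and highest KL-/- muscles, replicates 4 and 2, were also those of *Slc15a5*, but KL-/- replicates 1 and 3 stood in the opposite order.

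The nearest counted genes on the other side of *Slc15a5* were *Dera*, a deoxyribose-phosphate aldolase, 146 kb away (log2 fold change −0.17, edgeR FDR = 0.509), and *Strap*, an RNA-binding WD-repeat protein, 232 kb away (0.18, edgeR FDR = 0.0687). Beyond *Mgst1*, the next was *Plekha5* (−0.26, edgeR FDR = 0.155), outside the window. *1700001O22Rik* had 19 neighbours in the window, of which 3 were lower and 0 higher and the nearest of the 3 was 348 kb away. At an unadjusted p under 0.05, 11 of the 19 were lower and 1 higher, DESeq2 called 4 lower and 1 higher, and 10 were lower with library totals. Over all 12551 genes, DESeq2 called 1143 lower and 1313 higher, and library totals gave 2127 lower and 492 higher. The share of all genes at the unadjusted p is not given. The 3 lower in the main edgeR test were *Fam73b* (log2 fold change −0.63, edgeR FDR = 0.00622), *Dolpp1* (−0.38, FDR = 0.0360) and *Ppp2r4* (−0.24, FDR = 0.0325). *Ntmt1*, an N-terminal methyltransferase that starts 4.31 kb away, averaged 10.9 ± 0.755 CPM in the WT group and 9.31 ± 0.589 CPM in the KL-/- group (SD, n = 4, log2 fold change −0.22, edgeR FDR = 0.118). *Asb6*, a SOCS box protein, had a log2 fold change of −0.25 (edgeR FDR = 0.0944), and *Ier5l*, the nearest on the other side, of −0.43 (edgeR FDR = 0.0972).

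Of 5 neighbours of *Actr3b*, 0 passed the edgeR test, 1 was lower and 1 higher at an unadjusted p under 0.05, and DESeq2 called 0. *Xrcc2*, a DNA repair gene 54.2 kb away, had a log2 fold change of 0.028 (edgeR FDR = 0.919), *1700096K18Rik* of 0.17 (edgeR FDR = 0.563), and on the other side *Dpp6* of −0.54 (edgeR FDR = 0.312) and *Paxip1* of 0.28 (edgeR FDR = 0.128), both outside the window. Of 3 neighbours of *Gm5420*, *Hbs1l*, a ribosome rescue factor, was higher (log2 fold change 0.28, edgeR FDR = 0.0208, in 4 of 8 fits with 1 library left out), but not with library totals (log2 fold change 0.16, edgeR FDR = 0.0746). *Sgk1*, a kinase induced by serum and glucocorticoids 188 kb away, averaged 225 ± 45.7 CPM in the WT group and 239 ± 36.8 CPM in the KL-/- group (SD, n = 4, edgeR FDR = 0.729), and *E030030I06Rik* had a log2 fold change of 0.034 (edgeR FDR = 0.962). *Ahi1*, 610 kb away and outside the window, had one of −0.21 (edgeR FDR = 0.489). The 5 calls among all 31 neighbours were 2 without WT replicate 2 or 3 or KL-/- replicate 3 or 4, 3 without KL-/- replicate 1 and 8 without KL-/- replicate 2.

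**Figure D5:**
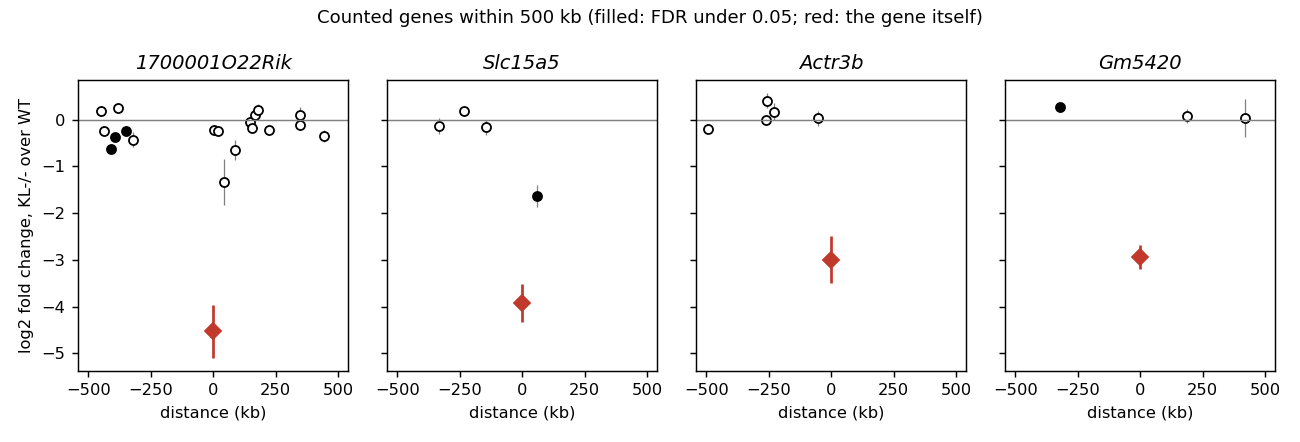
Log2 fold change (KL-/- over WT) of counted genes within 500 kb of each of the 4 genes, against distance in kb from the nearer end of the gene (negative towards lower coordinates), with bars for the standard error. Filled points passed an FDR of 0.05 and red diamonds are the 4 genes; *Mgst1*, at −1.64, is the lowest neighbour that passed.

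Some markers of other cell types differed between the genotypes as well, and their part in the decreases was not tested. Summed markers of tendon, endothelium, adipocytes and Schwann cells did not overlap between genotypes, whereas the sums of the other types did. Of the tendon markers only *Fmod* (log2 fold change −0.95) had no overlap by itself. Of the endothelial markers only *Kdr* (−0.90) had none. *Scx* (tendon) and *Mrc1* (macrophage) had log2 fold changes of 0.16 each, with overlapping genotypes, although the medians of their sets were negative. The counts of called markers stand beside 14.0% of all genes called in either direction. Tendon markers (3 genes, 1 lower, also with DESeq2) summed to 61.0 to 95.4 CPM in the WT group and 23.9 to 58.1 CPM in the KL-/- group, and endothelial markers (4 genes, 1 lower, 2 with DESeq2) to 356 to 536 and 318 to 352 CPM. Markers of fibro-adipogenic progenitors (5 genes, 1 lower, 3 with DESeq2 and 4 at an unadjusted p under 0.05, median log2 fold change −0.84) summed to 528 to 1426 and 306 to 705 CPM. In the WT group, the sums for macrophages, fibro-adipogenic progenitors and tendon were highest in replicate 3 and lowest in replicate 4. Those for muscle fibres, satellite cells and Schwann cells were also lowest in replicate 4, while the erythroid marker *Alas2* was highest there, at 9.57 CPM. *1700001O22Rik*, *Slc15a5* and *Actr3b* were lowest in replicate 3 and highest in replicate 4. Schwann cell markers (4 genes, 3 higher, 4 with DESeq2) ran from 30.4 to 55.6 CPM in the WT group and from 62.1 to 80.6 CPM in the KL-/- group, adipocyte markers (3 of 4 measured, 1 higher) from 179 to 199 and 206 to 252 CPM, and smooth muscle markers (3 genes, 1 higher) from 77.2 to 101 and 90.3 to 142 CPM. The adipocyte sum was almost all *Fabp4* (187 ± 8.77 CPM in the WT group, SD, n = 4), the gene that was called, while *Adipoq* and *Cidec* overlapped between genotypes. Satellite cell markers (4 genes, 0 called by edgeR, by DESeq2 or at an unadjusted p under 0.05) and the 1 erythroid marker measured of 5 overlapped between genotypes, at 30.5 to 38.0 and 33.3 to 38.2 CPM and at 3.35 to 9.57 and 3.07 to 9.16 CPM.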

How the data were processed

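RNA from whole TA muscles of 4 WT and 4 KL-/- mice was sequenced, 1 library per mouse. STAR was used by the authors for alignment to mm10, low-quality alignments were dropped, and the deposited values are counts per gene from featureCounts, not normalized and already limited to expressed genes. Use of strand in the counting is not given in the sources used here. The sample records name total RNA, whereas the methods describe mRNA sequencing. P-values set the difference between genotypes against the spread between these mice. Counts were analysed with edgeR 4.0.16 in R 4.3.3 with TMM factors, genotype as the only term, the quasi-likelihood test and Benjamini-Hochberg adjustment over 12551 genes. The default low-count filter removed none. Standard errors were taken from the test statistic. Log2 CPM used a prior count of 2, and RPKM the deposited exon lengths. The test was checked on simulated counts. No library pair was a duplicate (chi-square per gene at least 9.91).

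The 4 genes and all gene lists were chosen with earlier results of these data known. Lists covered the Arp2/3 complex, its regulators, SLC15 genes with peptide enzymes, cell type markers and neighbours within 500 kb. Older symbols were matched through RefSeq synonyms. Genes named are the 4, the 3 next in rank, the 3 most alike to each, the 2 nearest counted genes on each side, all Arp2/3 and SLC15 genes, and called genes of the lists; *Nr4a3*, *Carns1*, *Fam73b* and *Dolpp1* were chosen after their values were seen. Alternatives were RLE factors, library totals, a minimum of 10 counts in every sample, no filter, DESeq2 1.42.0, the likelihood ratio test, a replicate block and each library left out. Positions follow GENCODE vM21 and RefSeq on GRCm38. *Kl* and reads were not analysed here.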

Additional observations from a re-analysis of the deposited data

Results flagged for a closer look

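In 84 groups of 4 muscles (42 genes named in the comparisons, each genotype apart), a gap to the nearest other sample above Dixon's critical value at 95% was found in 2, where chance flags about 1 in 20 groups. *Hbs1l*, a neighbour of *Gm5420*, stood at 62.6 CPM in WT replicate 3, below the other WT muscles at 66.8 to 67.6 CPM. *Dpp6*, beyond *Actr3b*, stood at 2.39 CPM in KL-/- replicate 2, above the other KL-/- muscles at 0.787 to 1.06 CPM. Among the 4 chosen genes, none had a muscle past this value in either genotype.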

How the results depend on the processing

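The 4 genes kept their direction under every alternative that could be fitted, with log2 fold changes of −4.64 to −4.45 (*1700001O22Rik*), −4.04 to −3.88 (*Slc15a5*), −3.11 to −2.84 (*Actr3b*) and −3.05 to −2.93 (*Gm5420*), and of −4.74 to −3.99, −4.24 to −3.62, −3.26 to −2.43 and −3.22 to −2.80 with 1 library left out. The choice required no overlap between genotypes in these same libraries, which largely fixed the direction in advance, so its persistence is no test. The minimum of 10 counts kept *Actr3b* of the 4. Calls over all genes were 2127 lower and 492 higher with library totals (81.2% lower, against 47.6%; median log2 fold change −0.13), and ran from 343 to 1234 lower and 404 to 1521 higher with 1 library left out, with the lowest numbers lower without KL-/- replicate 4 and the highest without KL-/- replicate 2. Arp2/3 complex genes called were 6 with library totals, 2 with DESeq2 and 2 with the likelihood ratio test (1 to 3 with 1 library left out), its regulators 13 with library totals (1 to 6), SLC15 and peptide genes 0 to 4 with 1 library left out, and neighbours 12 with library totals and 8 with DESeq2 (2 to 8). *Xrcc2* turned to −0.090 with library totals and ran from −0.10 to 0.12 with 1 library left out. The causes were not tested. Replicate numbers did not pair the mice: same-numbered deviations correlated at −0.37 to 0.18, over 0.1 in 1 of 4 pairs, and 1 of 8 samples correlated best with its own number. With the replicate block, 323 genes were called lower and 348 higher, with 0 of the Arp2/3 complex, 1 regulator, 0 of the SLC15 and peptide genes and 2 neighbours. In KL-/- libraries, *1700001O22Rik* and *Gm5420* rested on 3 to 11 counts each, which limits comparisons among the KL-/- muscles.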
